A study of Mus musculus with 8 samples.

Results

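The 10 genes described here encode the light-signalling cascade of cone photoreceptors: the cone opsins Opn1sw and Opn1mw, cone arrestin (Arr3), the cone transducin subunits Gnat2, Gnb3, and Gngt2, the cone phosphodiesterase subunits Pde6c and Pde6h, and the cone cyclic nucleotide-gated channel subunits Cnga3 and Cngb3. They were chosen by name, with earlier results of these data known, and all 10 were found among the 21828 genes listed in every table. RNA was sequenced from 8 samples of mouse retina of the background strain slc:ICR, with 1 library per condition. The samples were unsorted retinas at embryonic days E15 and E18, and a Cd73-positive fraction (Cd73PC) and a Cd73-negative fraction (Cd73NC) sorted by flow cytometry from pooled retinas at postnatal days P2, P5, and P8. Cd73, encoded by Nt5e, is a surface protein of rod precursors and rods. The authors describe Cd73PC as rods and photoreceptor precursors, and Cd73NC as interneurons, Müller glia, and ganglion cells. They sorted quickly at some cost in purity, and the sort does not settle which fraction held the cones. Cones were not sorted in any sample, and the question addressed was where the cone genes stood relative to this separation and how their levels moved with age.

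Levels are given in FPKM, a count of fragments scaled to transcript length and to the mapped fragments of the library. Each deposited FPKM comes with confidence bounds, and the interval between them covers only the error of estimation inside that library and leaves out variation between animals. No condition had a replicate, so no difference below could be tested, and a difference is called only when it was past 1.5-fold on FPKM + 1. Nt5e was higher in Cd73PC at every stage, with 97.3 against 2.43 FPKM (P2), 131 against 31.4 (P5), and 124 against 9.38 (P8). The 5 rod markers (Nrl, Nr2e3, Gnat1, Pde6b, and Sag) summed to between 2998 and 7751 FPKM in Cd73PC and to between 49.9 and 736 in Cd73NC, all 5 were higher in Cd73PC at each stage, and none was at 0 in a sorted library. Their sum in Cd73NC came to 1.67% (P2), 12.6% (P5), and 6.85% (P8) of the sum in Cd73PC. Conversely, 5 Müller glia markers (Rlbp1, Glul, Slc1a3, Apoe, and Dkk3) in Cd73PC summed to 43.9% (P2), 26.6% (P5), and 26.1% (P8) of Cd73NC. Of these 5, 1 was higher in Cd73PC at P2 and 0 at P5 and P8. The depth relative to E18 ranged from 0.964 at E15 to 1.62 in Cd73PC at P2, and between 11153 and 12414 genes per library reached 1 FPKM.

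In a cone, light activates an opsin, which activates transducin, a G protein of an alpha, a beta, and a gamma subunit. Transducin relieves the inhibition of phosphodiesterase, cyclic GMP falls, and the cyclic nucleotide-gated channel in the outer segment membrane closes. Arrestin then ends the signal by binding the phosphorylated opsin. Rods run the same cascade with paralogous proteins, and in the mouse cones are born before birth whereas most rods are born around and after it.

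The promoter windows of 4 cone genes are shown because the genes differ in when they appeared and because the windows differ in their matches to a photoreceptor homeodomain motif. Crx and Otx2, the homeodomain regulators of photoreceptor genes, bind the core TAATCC (reverse complement GGATTA) and its variant TAATCT (reverse complement AGATTA), and both were searched on both strands without overlap between them. The sequences are those of RefSeq on the build GRCm38.p6, a later build than that of the expression tables, matched by symbol, and each is the 250 bases before the annotated start, 5′ to 3′ on the strand of the gene, with the motif in capitals. The windows lie at chr6:29380514-29380763 on the minus strand for Opn1sw, and on the plus strand at chrX:74127216-74127465 for Opn1mw, chrX:100605247-100605496 for Arr3, and chr3:108092816-108093065 for Gnat2.
Opn1sw: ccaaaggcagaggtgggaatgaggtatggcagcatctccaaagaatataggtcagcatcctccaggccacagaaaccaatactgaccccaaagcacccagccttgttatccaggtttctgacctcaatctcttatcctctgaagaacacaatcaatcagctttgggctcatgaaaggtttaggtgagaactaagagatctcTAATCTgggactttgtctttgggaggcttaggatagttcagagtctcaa
Opn1mw: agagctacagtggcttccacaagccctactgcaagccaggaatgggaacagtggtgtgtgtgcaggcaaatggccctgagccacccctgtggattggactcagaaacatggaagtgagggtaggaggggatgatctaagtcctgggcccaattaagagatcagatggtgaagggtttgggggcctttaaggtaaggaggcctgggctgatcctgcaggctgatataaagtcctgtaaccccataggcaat
Arr3: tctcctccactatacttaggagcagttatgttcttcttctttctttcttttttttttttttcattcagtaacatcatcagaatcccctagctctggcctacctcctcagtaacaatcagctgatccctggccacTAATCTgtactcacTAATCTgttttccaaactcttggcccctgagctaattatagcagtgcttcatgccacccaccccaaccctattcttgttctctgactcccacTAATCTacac
Gnat2: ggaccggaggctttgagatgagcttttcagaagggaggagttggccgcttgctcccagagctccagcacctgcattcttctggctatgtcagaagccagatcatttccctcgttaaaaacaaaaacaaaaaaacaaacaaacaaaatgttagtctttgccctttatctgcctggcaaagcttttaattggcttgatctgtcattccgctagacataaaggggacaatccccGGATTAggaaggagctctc

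Opn1sw held 1 TAATCT, 49 to 44 bases before the start. Arr3 held 3, at 116 to 111, 102 to 97, and 10 to 5 bases before the start. Gnat2 held 1 TAATCC on the opposite strand, 19 to 14 bases before the start, and Opn1mw held neither. Of the 10 genes, 6 had a window in the sequences used. The other 2 of these, Pde6h and Cnga3, held neither motif, and Gnb3, Gngt2, Pde6c, and Cngb3 were not analysed here. Among 32851 windows of this length, 6.25% held TAATCC, 7.31% held TAATCT, and 12.8% held either. A match describes the letters of the window and does not show binding.

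**Figure D1:**
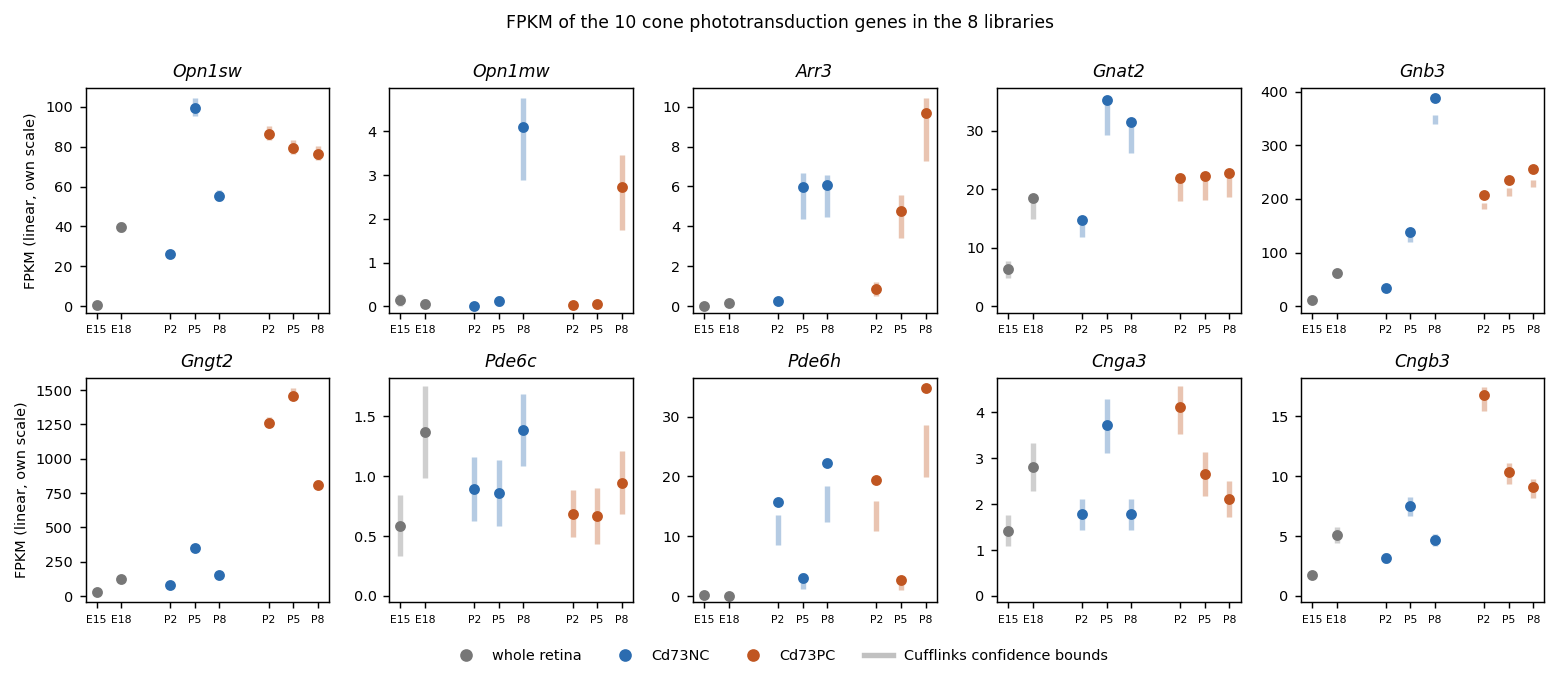
FPKM (linear axis, a separate scale in each panel) of the 10 cone genes in the 8 libraries, with whole retina in grey, Cd73NC in blue, and Cd73PC in orange; points are the deposited values of single libraries and bars are the confidence bounds of Cufflinks within that library. Opn1mw is above 0.135 FPKM only in the P8 libraries, Pde6h is lower at P5 than at P2 and P8 in both fractions, and Gngt2 reaches 1460.4 FPKM in Cd73PC at P5.

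The opsins appeared far apart in time. Opn1sw, the short-wavelength opsin, was at 0.497 FPKM at E15 and 39.8 at E18. At P2, P5, and P8 the Cd73NC libraries had 26.2, 99.4, and 55.2, and the Cd73PC libraries 86.2, 79.6, and 76.5. The step from E15 to E18 was 4.77 on the log2 scale of FPKM + 1, the largest of the 10 genes between those ages. Cd73PC stayed within a narrow band from P2 to P8, while Cd73NC started low, was highest of all libraries at P5, and was lower again at P8. Opn1sw was past 1.5-fold higher in Cd73PC at P2 (log2 ratio 1.68), and the differences at P5 (-0.32) and P8 (0.46) were below 1.5-fold, although the bounds of the fractions did not overlap at either age (at P5, 95.3 to 104 in Cd73NC against 76.1 to 83.6 in Cd73PC, and at P8, 52.9 to 58.1 against 73.3 to 80.2). The P8 ratio passed 1.5-fold when the libraries were scaled to the same upper quartile (0.65). In these bulk samples, fewer cells of a type and less RNA per cell cannot be told apart.

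Opn1mw, the medium-wavelength opsin, was at 0.135 FPKM at E15 and 0.0651 at E18. It was listed at 0 in Cd73NC at P2 and was at 0.0403 in Cd73PC. At P5 it was at 0.113 in Cd73NC and 0.0583 in Cd73PC, with a lower bound of 0 in both. At P8 it was at 4.10 in Cd73NC and 2.72 in Cd73PC, so that both P8 libraries stood above all 6 others. The step from P5 to P8 was 2.20 in Cd73NC and 1.81 in Cd73PC on the log2 scale of FPKM + 1, a scale that understates changes of such low values, and 4.30 and 4.15 with 0.1 added in place of 1. The bounds of the P8 fractions, 2.88 to 4.75 in Cd73NC and 1.75 to 3.46 in Cd73PC, overlapped. Of the FPKM of both opsins together, Opn1mw made up 6.90% in Cd73NC and 3.43% in Cd73PC at P8, and at most 0.163% in any library from E18 to P5. Opn1sw therefore still exceeded Opn1mw by 13.5-fold in Cd73NC and 28.1-fold in Cd73PC at P8.

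Arr3, cone arrestin, was also a late gene. It was listed at 0 at E15 and was at 0.172 FPKM at E18. Levels in Cd73NC were 0.271, 5.98, and 6.07 at the successive postnatal stages, and in Cd73PC 0.886, 4.77, and 9.66. The larger step was that from P2 to P5, with a log2 ratio of 2.46 in Cd73NC and 1.61 in Cd73PC, and Cd73PC was past 1.5-fold higher again at P8 (0.89). The log2 ratio of Cd73PC over Cd73NC was 0.57 at P2, below 1.5-fold, and 0.59 at P8, just past it. At P2 the bounds did not overlap (0.0769 to 0.461 in Cd73NC against 0.513 to 1.24 in Cd73PC), and the ratio passed 1.5-fold with a pseudocount of 0.1 (1.41) or 0 (1.71) and, by less, under upper-quartile scaling (0.59) and quantile normalization (0.62). At P5 the ratio of -0.27 changed sign under quantile normalization (0.06).

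The 3 transducin subunits behaved differently from one another. Gnat2, the alpha subunit that carries the GTPase, was at 6.35 FPKM at E15 and 18.6 at E18. After birth it stood at 14.8 (P2), 35.3 (P5), and 31.6 (P8) in Cd73NC and at 21.9, 22.3, and 22.8 in Cd73PC. Cd73PC hardly varied, and Cd73NC was below it at P2 and above it at P5 and P8. The log2 ratios of Cd73PC over Cd73NC were 0.53 (P2), -0.64 (P5), and -0.45 (P8). The P5 difference was past 1.5-fold as deposited and not after upper-quartile scaling (-0.49) or quantile normalization (-0.55), whereas the P2 difference passed it under both (0.61 and 0.59). At P5 the bounds were 29.2 to 35.7 in Cd73NC and 18.1 to 22.5 in Cd73PC.

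Gnb3, the beta subunit, is used by cones and also by ON bipolar cells, the interneurons that signal light onset through the glutamate receptor Grm6. It was at 12.3 FPKM at E15 and 63.0 at E18. The Cd73NC libraries had 35.1 FPKM (P2), 139 (P5), and 388 (P8), and the Cd73PC libraries 208, 236, and 255. Cd73PC was the higher fraction at P2 and P5 and Cd73NC at P8. The log2 ratios of Cd73PC over Cd73NC were 2.53 (P2), 0.76 (P5), and -0.60 (P8), and Gnb3 was the only cone gene past 1.5-fold in both directions. The P5 call was lost under quantile normalization (0.55) and the P8 call under upper-quartile scaling (-0.41), with the sign kept at each stage. In 7 of 8 libraries the deposited FPKM of Gnb3 lay above its own upper bound, and at P8 the bounds were 340 to 356 in Cd73NC and 223 to 236 in Cd73PC.

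In Cd73NC the markers of ON bipolar cells and Gnb3 were both higher at each later stage, with their larger steps at different ages. The 8 markers (Grm6, Trpm1, Prkca, Isl1, Cabp5, Pcp2, Nyx, and Gng13) summed to 13.6, 67.4, and 1391 FPKM in Cd73NC of P2, P5, and P8 and to 62.3, 37.6, and 202 in Cd73PC. All 8 were past 1.5-fold higher at P8 than at P5 in each fraction, against 8.47% of all genes in Cd73NC and 3.31% in Cd73PC. Their median log2 ratio was 4.40 in Cd73NC and 2.36 in Cd73PC. At P8 all 8 were past 1.5-fold lower in Cd73PC than in Cd73NC, against 18.6% of all genes. The markers were not uniform between the fractions at the earlier stages. At P2, 4 of 8 were past 1.5-fold higher in Cd73PC, against 8.56% of all genes, and 1 was lower, against 14.4%. At P5, 1 was higher, against 7.02%, and 4 were lower, against 15.5%. Grm6 was listed at 0 in Cd73NC at P2 and was at 6.58 at P5 and 162 at P8. Gnb3 was 1.47 higher on the log2 scale at P8 than at P5 in Cd73NC and did not pass 1.5-fold in Cd73PC. Its larger step in Cd73NC was that from P2 to P5, at 1.96. Over that step the markers had a median of 1.76, and 7 of 8 were past 1.5-fold higher, against 7.93% of all genes. The part of the bipolar markers in this result was not tested.

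**Figure D2:**
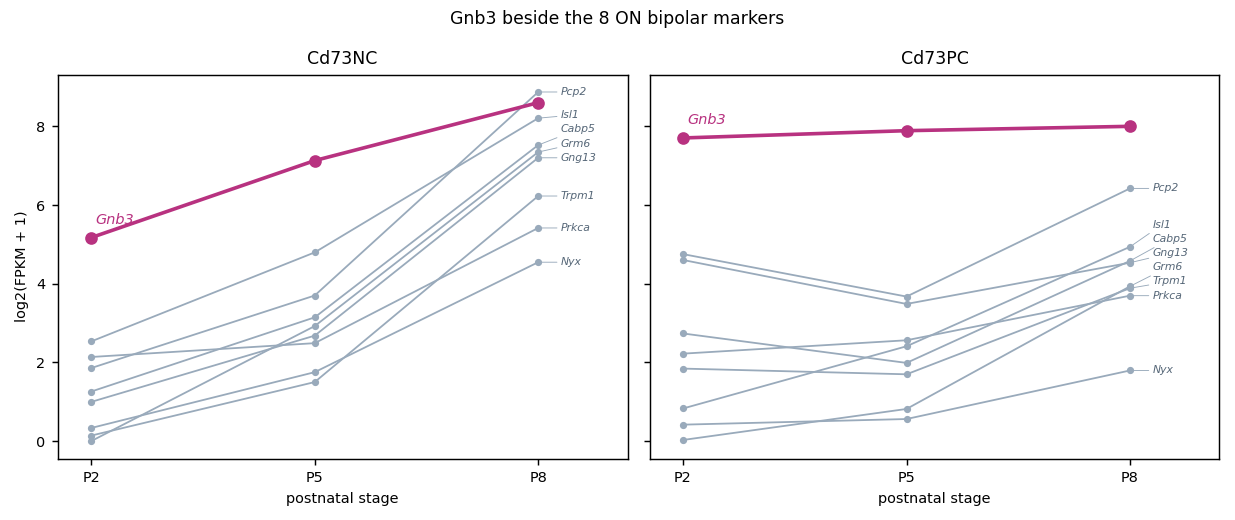
log2(FPKM + 1) of Gnb3 (thick line) and of the 8 ON bipolar markers (thin lines) at P2, P5, and P8 in Cd73NC (left) and Cd73PC (right), 1 library per point. In Cd73NC Gnb3 goes from 35.1 to 388 FPKM as the 8 markers go from a sum of 13.6 to 1391, and in Cd73PC it stays between 208 and 255 FPKM.

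Gngt2, the gamma subunit, was the most abundant cone gene in 7 of the 8 libraries, and Gnb3 was above it in Cd73NC at P8. It was at 26.8 FPKM at E15 and 125 at E18. Cd73NC of P2, P5, and P8 had 80.3, 348, and 152, while Cd73PC had 1259.8, 1460.4, and 812. Every Cd73PC value was above every Cd73NC and whole-retina value. Ranked by FPKM among all genes of its library, it took place 12 in both P2 and P5 Cd73PC and place 41 in P8 Cd73PC. Gngt2 was the only cone gene past 1.5-fold higher in Cd73PC at all 3 stages, with log2 ratios of 3.96, 2.07, and 2.41. From P5 to P8 it was lower in both fractions, by -0.85 in Cd73PC and -1.19 in Cd73NC on the log2 scale. Its transcript is short, 558 bases, and 182 bases of its row are shared with Abi3, which had between 0.391 and 1.63 FPKM. The library protocol as described does not mark the strand, so reads of the shared bases cannot be assigned to either gene.

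The phosphodiesterase subunits differed from each other in level and in course. Pde6c, the catalytic subunit, stayed between 0.587 FPKM at E15 and 1.38 in Cd73NC at P8. It was at 0.896, 0.859, and 1.38 in Cd73NC and at 0.687, 0.666, and 0.945 in Cd73PC at P2, P5, and P8, and its bounds overlapped between the fractions at each stage. On FPKM + 1 no difference of Pde6c between fractions or consecutive ages passed 1.5-fold. From E15 to E18, however, its bounds did not overlap (0.332 to 0.843 against 0.984 to 1.75), and the step of 0.58 on the log2 scale was 1.09 with a pseudocount of 0.1 and 1.22 with 0. The step from P5 to P8 in Cd73NC, 0.36, also passed 1.5-fold with these (0.63 and 0.69).

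Pde6h, the inhibitory gamma subunit of the cone enzyme, was at 0.193 FPKM at E15 and was listed at 0 at E18. Its postnatal values were 15.7 (P2), 3.08 (P5), and 22.2 (P8) in Cd73NC and 19.4, 2.67, and 34.8 in Cd73PC. Both P5 libraries were thus lower than the P2 and P8 libraries of either fraction. The step from P2 to P5 was -2.04 in Cd73NC and -2.47 in Cd73PC, and that from P5 to P8 was 2.51 and 3.29. The fractions lay within 1.5-fold of each other at P2 (log2 ratio 0.28) and P5 (-0.15, and 0.27 under quantile normalization), and Cd73PC was past 1.5-fold higher at P8 (0.62). The bounds were 19.8 to 28.6 in Cd73PC and 12.4 to 18.3 in Cd73NC at P8, and the deposited value of Pde6h was above its own upper bound in these and in both P2 libraries.

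Both channel subunits were highest in Cd73PC at P2. Cnga3, the subunit that can form the channel alone, was at 1.42 FPKM at E15 and 2.82 at E18. The 3 Cd73NC libraries had 1.78, 3.72, and 1.78 in order of age, and the 3 Cd73PC libraries 4.13, 2.66, and 2.12. It was past 1.5-fold higher in Cd73PC at P2 (log2 ratio 0.88), where the bounds were 3.53 to 4.58 against 1.43 to 2.11. At P5 the ratio was -0.37 (0.05 under quantile normalization) and at P8 0.17 (0.71 under quantile normalization, past 1.5-fold).

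Cngb3, the modulatory subunit, was at 1.77 FPKM at E15 and 5.10 at E18. In order of age, Cd73NC had 3.18, 7.49, and 4.69, and Cd73PC 16.8, 10.3, and 9.09. Cd73PC was above Cd73NC at each stage, past 1.5-fold at P2 (log2 ratio 2.09) and P8 (0.83) and not at P5 (0.42, and 0.65 under quantile normalization). From P2 to P5 it moved in opposite directions, -0.65 in Cd73PC and 1.02 in Cd73NC, and the Cd73PC step was within 1.5-fold under both upper-quartile scaling (-0.53) and quantile normalization (-0.47).

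In the oldest Cd73PC library, P8, the levels ran in the order Gngt2, Gnb3, Opn1sw, Pde6h, Gnat2, Arr3, Cngb3, Opn1mw, Cnga3, and Pde6c. The bounds overlapped between the neighbours Pde6h and Gnat2, Arr3 and Cngb3, and Opn1mw and Cnga3, so the order within these pairs lies within the error of estimation. In P8 Cd73NC the order was Gnb3, Gngt2, Opn1sw, Gnat2, Pde6h, Arr3, Cngb3, Opn1mw, Cnga3, and Pde6c, with overlapping bounds from Arr3 to Cngb3, from Cngb3 to Opn1mw, and from Cnga3 to Pde6c. The catalytic subunit Pde6c was thus the lowest of the 10 in both, and its inhibitory partner Pde6h was among the upper 5.

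Taking the 10 genes as a group, more were called between the fractions at P2 than at P5. At P2, 5 of 10 (Opn1sw, Gnb3, Gngt2, Cnga3, and Cngb3) were past 1.5-fold higher in Cd73PC, against 8.56% of all genes, and 0 were lower, against 14.4%. The median log2 ratio was 0.73, with Opn1mw, listed at 0 in Cd73NC, entered as FPKM + 1, and over all genes it was 0. All genes here and below include those under 1 FPKM: at P2, 11699 genes reached it in Cd73PC and 11884 in Cd73NC. For weaker genes 1.5-fold on FPKM + 1 is harder to reach, so the shares and medians of all genes are not those of expressed genes. At P5, 2 of 10 (Gnb3 and Gngt2) were higher, against 7.02% of all genes, and 1 (Gnat2) was lower, against 15.5%, with a median of -0.16 against 0. At P8, 4 of 10 (Arr3, Gngt2, Pde6h, and Cngb3) were higher, against 7.54%, and 1 (Gnb3) was lower, against 18.6%, with a median of 0.31 against -0.02. Opn1mw and Pde6c passed 1.5-fold at no stage.

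Counted by bounds that did not overlap, 7 of 10 were higher in Cd73PC at P2, against 16.1% of all genes, and 0 were lower, against 25.5%. At P5, 3 of 10 were higher, against 12.2%, and 2 (Opn1sw and Gnat2) were lower, against 26.1%. At P8, 5 were higher, against 12.9%, and 2 (Gnat2 and Gnb3) were lower, against 30.4%. The summed FPKM of the 10 genes in Cd73NC came to 11.0% (P2), 35.3% (P5), and 54.4% (P8) of the sum in Cd73PC, and Gngt2 made up most of the Cd73PC sum at each stage. Gnb3 made up 388 of the 666 FPKM in P8 Cd73NC, and without it, an alternative chosen after seeing the data, the shares were 10.2%, 31.8%, and 28.7%.

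The 9 rod counterparts analysed (Sag, Gnat1, Gnb1, Gngt1, Pde6a, Pde6b, Pde6g, Cnga1, and Cngb1) were all past 1.5-fold higher in Cd73PC of each stage, with median log2 ratios of 4.78, 3.50, and 3.90. Of all genes, 8.56% (P2), 7.02% (P5), and 7.54% (P8) were past 1.5-fold higher. Pde6c enters the 9 pairs with both Pde6a and Pde6b, and neither opsin is paired. Set against its counterpart, the cone gene was less enriched in Cd73PC in 8 of 9 pairs at P2 and in all 9 pairs of either later stage. The median difference between cone and rod log2 ratios was -3.70, -3.28, and -3.73 at the successive stages. The exception at P2 was Gnb3, whose ratio of 2.53 exceeded that of Gnb1 (1.48). Gngt2 was otherwise nearest to its counterpart, at -0.82, -1.43, and -1.48 relative to Gngt1.

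**Figure D3:**
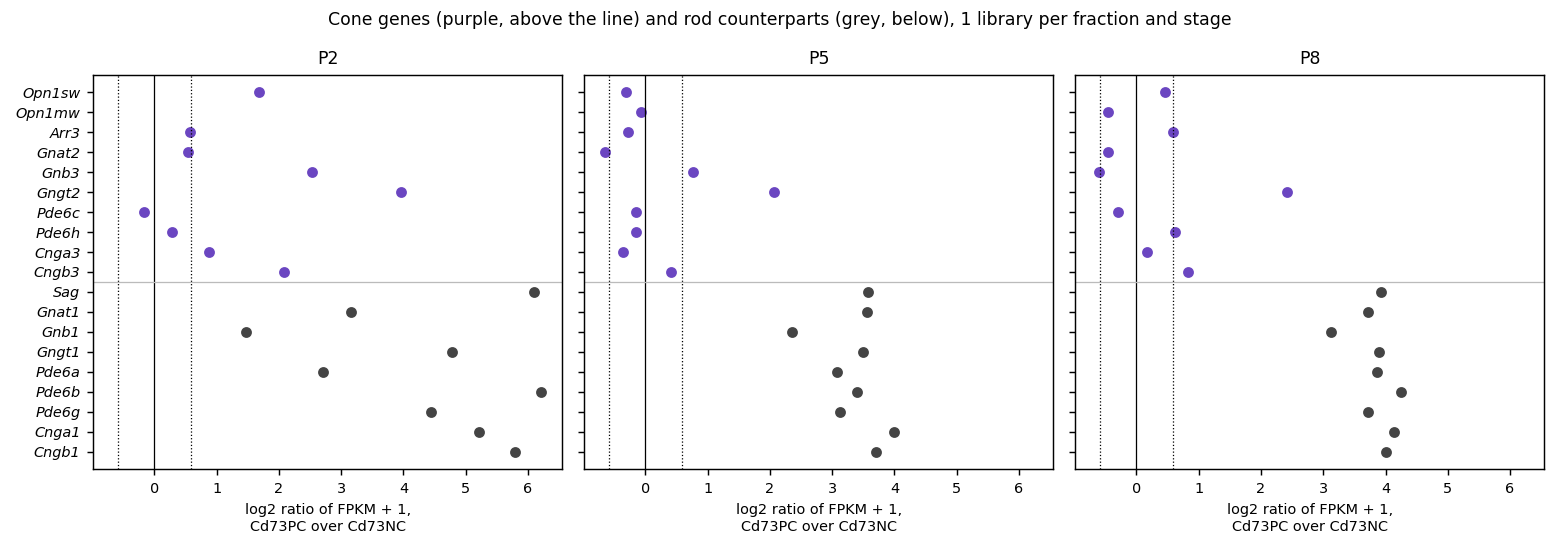
log2 ratio of FPKM + 1 in Cd73PC over Cd73NC at P2, P5, and P8 for the cone genes (purple, above the grey line) and their rod counterparts (dark grey, below it), 1 library per fraction and stage, with dotted lines at 1.5-fold; Opn1mw is not drawn at P2, where Cd73NC is listed at 0. The rod counterparts have medians of 4.78, 3.50, and 3.90 and the cone genes of 0.73, -0.16, and 0.31, and quantile normalization turns the sign of Arr3, Pde6c, Pde6h, and Cnga3 at P5 and of Opn1mw and Pde6c at P8.

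With age, more cone genes were called before birth and in postnatal Cd73NC than in postnatal Cd73PC. From E15 to E18, 6 of 10 were past 1.5-fold higher, against 4.61% of all genes, and 0 were lower, against 2.09%. These were Opn1sw (log2 ratio 4.77), Gnb3 (2.26), Gngt2 (2.18), Gnat2 (1.41), Cngb3 (1.14), and Cnga3 (0.66, and 0.49 under quantile normalization, within 1.5-fold). The median over the 10 was 0.90. Of the rod counterparts, 4 of 9 were higher over this interval, with a median of 0.47.

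From P2 to P5 in Cd73NC, 7 of 10 were past 1.5-fold higher, against 7.93% of all genes, and only Pde6h was lower, against 9.52%. Opn1mw and Pde6c were within 1.5-fold. In Cd73PC over the same interval only Arr3 was higher, against 3.36% of all genes, and Pde6h and Cngb3 were lower, against 8.57%. The median step was 1.11 in Cd73NC and 0.00 in Cd73PC, and all 9 rod counterparts were past 1.5-fold higher in Cd73PC at this step, with a median of 1.68. In Cd73NC 8 of the 9 rod counterparts were higher as well, with a median of 2.95, and the sum of the 5 rod markers there went from 49.9 to 736 FPKM. The part of these rod transcripts in the steps of the cone genes was not tested.

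From P5 to P8, a step that shares the P5 libraries with the preceding one, 3 of 10 were higher in Cd73PC (Opn1mw, Arr3, and Pde6h), against 3.31% of all genes, and Gngt2 was lower, against 4.78%. In Cd73NC 3 were higher (Opn1mw, Gnb3, and Pde6h), against 8.47%, and 3 were lower (Opn1sw at -0.84, Gngt2 at -1.19, and Cnga3 at -0.77), against 7.78%. Opn1mw and Pde6h were higher at P8 in both fractions.

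Because FPKM is scaled to transcript length, a cone gene can be set beside its rod counterpart within a library, where the scaling of the library cancels. Cone transcripts exceeded rod transcripts in 6 of 9 pairs at E15, in 5 of 9 at E18, and in 6 of 9 in Cd73NC at P2. Pde6c is counted with both Pde6a and Pde6b in these counts and medians. The number was 2 of 9 in Cd73NC of P5 and 3 of 9 in that of P8, 2 of 9 in Cd73PC at P2, and 1 of 9 in each later Cd73PC library. The median ratio of cone to rod FPKM was 5.47 at E15, 5.50 at E18, and 5.96 in Cd73NC at P2, and in the later Cd73NC libraries it was 0.543 (P5) and 0.179 (P8). In Cd73PC it was 0.121, 0.0326, and 0.0153 in order of age. These medians include rod genes near 0 FPKM in the early libraries, and with 1 added to each FPKM they were 1.51 at E15, 1.90 at E18, and 1.85 in Cd73NC at P2, with the higher gene of each pair the same. From P2 to P8 the ratio was lower in 7 of 9 pairs in Cd73NC and in 8 of 9 in Cd73PC. The exceptions were Arr3 over Sag in both fractions (0.0211 and 0.0222 in Cd73NC, 0.000938 and 0.00231 in Cd73PC) and Gnb3 over Gnb1 in Cd73NC (0.176 and 1.88). From P5 to P8 in Cd73NC, Pde6h over Pde6g went from 0.0180 to 0.130 and Pde6c over Pde6b from 0.0260 to 0.0421.

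Cnga3 exceeded Cnga1, the rod channel subunit, at E15, at E18, and in Cd73NC at P2, but Cnga1 was then at 0.0811 FPKM (E15) and 0.0206 (P2 Cd73NC) with a lower bound of 0, so the size of these ratios is not determined. With 1 added the log2 ratio was 1.16 at E15 and 1.44 in Cd73NC at P2. Cnga3 was at 0.543 times Cnga1 in P5 Cd73NC and at 0.133 times in P8 Cd73NC, and at 0.111, 0.0216, and 0.00836 times in Cd73PC. Gnat2 exceeded Gnat1 in all libraries but those of Cd73PC at P5 (0.289) and P8 (0.0600). In P8 Cd73NC it did so by only 1.13-fold, and the bounds overlapped (26.3 to 31.1 against 24.2 to 28.0). The deposited FPKM of Gnat2 in that library lay above its own upper bound. Gngt2 exceeded Gngt1 in all 8, with 26.8 against 0.284 FPKM at E15, where the lower bound of Gngt1 was 0 (log2 ratio 6.56, and 4.44 with 1 added), and by 1.08-fold in Cd73PC at P8. In that P8 library Gngt1, at 753 FPKM, lay above its own bounds of 586 to 616, and those of Gngt2 were 782 to 847. The ratios use the deposited FPKM even where it lay outside its bounds. In P8 Cd73PC it lay above them for Sag and Pde6g and below them for Gnb1. Gnb3 stood at 0.0526 times Gnb1 at E15 and exceeded it only in Cd73NC at P8, at 1.88 times. Gnb1 is expressed in many cell types besides rods, and it had between 199 and 239 FPKM in whole retina and Cd73NC.

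**Figure D4:**
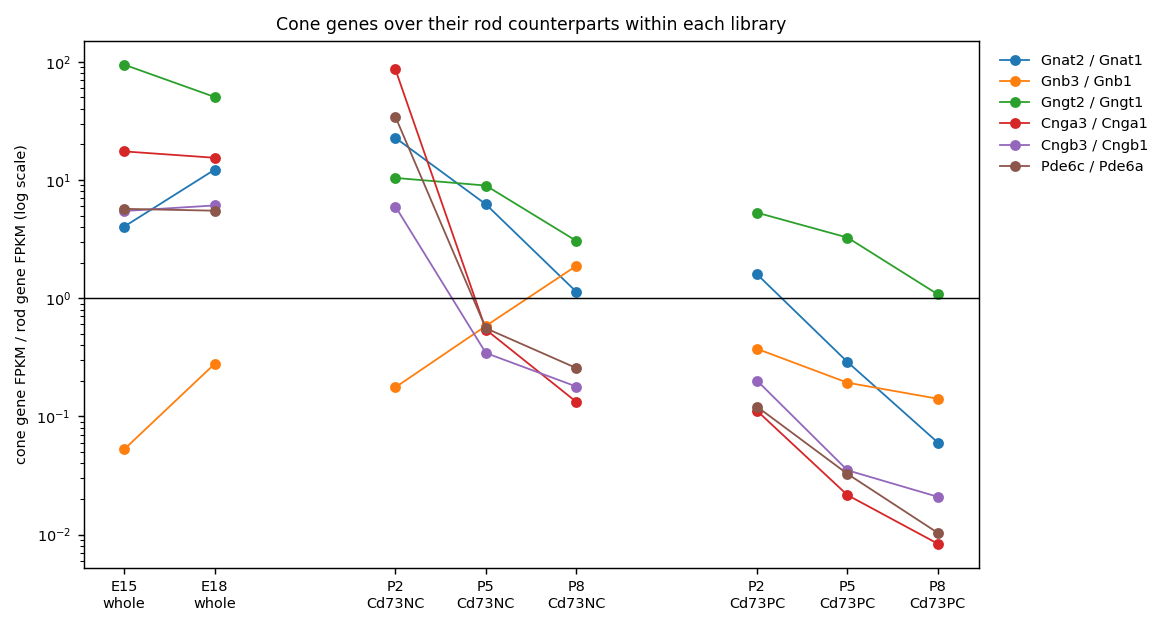
Ratio of cone gene FPKM to rod counterpart FPKM within each library (log axis; the horizontal line marks equal FPKM) for 6 of the 9 pairs, with points of the same kind of sample joined by lines and 1 library per point. Gngt2 over Gngt1 is above the line in all 8 libraries, Gnb3 over Gnb1 crosses it in Cd73NC at P8 at 1.88, and the other ratios drawn are lower at P8 than at P2 in both fractions. The heights of Cnga3 over Cnga1 at E15 and in P2 Cd73NC rest on 0.0811 and 0.0206 FPKM of Cnga1. That of Pde6c over Pde6a in P2 Cd73NC rests on 0.0262 FPKM of Pde6a. At E15 those over Cngb1 and Gngt1 rest on 0.323 and 0.284 FPKM. Each of these rod values has a lower bound of 0.

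Other genes of the phototransduction pathway that cones and rods share or that tune the response lay between the cone genes and the rod counterparts in their median ratio. Of 13 such genes, 11 were past 1.5-fold higher in Cd73PC at each of P2, P5, and P8, against 8.56%, 7.02%, and 7.54% of all genes. The median log2 ratios were 2.32, 2.05, and 3.09. Only Slc24a2 at P5 was past 1.5-fold lower, against 15.5% of all genes. Slc24a2, the sodium-calcium-potassium exchanger of cones, was at 1.22 FPKM in P5 Cd73NC, at 0.432 in P5 Cd73PC, and at 0.522 or less elsewhere. Guca1a, a calcium-sensing activator of guanylate cyclase present in both receptor types, had log2 ratios of 0.93, -0.29, and 0.26. Grk1, the opsin kinase that mouse cones and rods both use, had 2.33, 2.11, and 3.55, and Kcnv2, a potassium channel subunit of both, had 4.19, 2.69, and 3.89.

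Most of the regulators of photoreceptor fate were higher in Cd73PC at each stage, with exceptions. Of 11 fate regulators, 8 (P2), 6 (P5), and 7 (P8) were past 1.5-fold higher in Cd73PC, against 8.56%, 7.02%, and 7.54% of all genes. The medians were 1.76, 0.97, and 1.72. Thrb, the thyroid hormone receptor needed for medium-wavelength opsin, was at 16.7 FPKM at E15 and 11.4 at E18. It was at 5.40, 7.28, and 4.94 in Cd73NC and at 15.0, 18.5, and 18.7 in Cd73PC, above Cd73NC at each stage. Rxrg, its retinoid receptor partner in cones, was at 3.48, 6.31, and 2.06 in Cd73NC and 26.9, 22.6, and 8.48 in Cd73PC. Onecut1, an early cone and horizontal cell factor, was at 14.2 at E15 and 4.29 at E18 and at most 1.61 after birth. Crx and Pias3 were past 1.5-fold higher in Cd73PC at each stage (log2 ratios 2.68, 0.97, and 1.72 for Crx and 3.16, 2.02, and 3.02 for Pias3), and Neurod1 at P2 (1.76) and P8 (1.84). Otx2 was past 1.5-fold higher in Cd73PC at P2 (1.15) and lower at P5 (-0.79) and P8 (-0.64). Sall3 was past 1.5-fold lower at P5 (-0.95) and P8 (-0.65), and Rorb, a nuclear receptor, passed 1.5-fold at no stage. Nrl and Nr2e3, which direct precursors to the rod fate, had ratios of 5.07, 2.24, and 3.71 and of 6.78, 2.84, and 3.65 in order of age.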

How the data were processed

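The authors aligned single-end reads of 36 bases to NCBI37/mm9 and deposited, for each of 8 libraries, the FPKM of 23021 rows with confidence bounds. The submitters' processing notes name CASAVA 1.8.2, bcl2fastq 1.8.4, TopHat2 2.0.8b, and Cufflinks 2.1.1. RNA was poly(A)-selected. Read counts were not used here, and absolute depth, and with it any detection limit, is unknown; the depth relative to E18 was read from the steps of rows below 0.3 FPKM. From these values, 787 rows of small RNAs were left out and rows of 235 symbols with several rows were summed (Cngb1 has 2). Between 4 and 10 failed rows per library were taken as missing. Ratios are of FPKM + 1; cone to rod ratios within a library have nothing added.

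The members and gene lists were chosen with earlier results of these data known. The genes named are the 10 members, 9 rod counterparts, 13 other pathway genes, 11 fate regulators, and markers that a result turns on. For each member that reached 5 FPKM, the 3 genes most alike over the 8 libraries were found. The nearest of them is named, and for Pde6h all 3. These genes were sought outside the members, rod counterparts, other pathway genes, and fate regulators. Alternatives were a pseudocount of 0.1 or 0, upper-quartile scaling, quantile normalization, 2-fold, and non-overlapping bounds. Counts were also taken over genes of at least 1 FPKM in at least 1 library. A pseudocount of 1 for the cone to rod ratios and sums without Gnb3 were chosen after seeing the data. The code was tested on simulated data and used pandas 2.3.3, numpy 2.4.6, and matplotlib 3.10.9 under Python 3.11.15. A pair of genes in the fixed lists is not reported here.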

Additional observations from a re-analysis of the deposited data

Results flagged for a closer look

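The difference of Gnb3 between the fractions turned over with age. Its log2 ratio of Cd73PC over Cd73NC was 2.53 at P2 and 0.76 at P5, in favour of Cd73PC, and -0.60 at P8, in favour of Cd73NC. The sign held at each stage under both scalings, but the P5 ratio was within 1.5-fold under quantile normalization (0.55). The P8 ratio was within it under upper-quartile scaling (-0.41). With 1 library per fraction and stage, the difference between these ratios was not tested.

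Cngb3 moved in opposite directions in the fractions from P2 to P5. The log2 ratio of P5 over P2 was -0.65 in Cd73PC and 1.02 in Cd73NC, and the difference between them was not tested. The Cd73PC ratio was within 1.5-fold under upper-quartile scaling (-0.53) and quantile normalization (-0.47).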

How the results depend on the processing

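No paired analysis was possible because each condition had 1 library, and for the same reason no replicate could be left out and every value rests on single libraries. Counts and ratios that differed by over 1.5-fold between settings were taken as moved. Upper-quartile scaling shifted the median log2 ratio of Cd73PC over Cd73NC by 0.14 at P5 and 0.17 at P8, and quantile normalization by 0.20 and 0.24, over genes of at least 1 FPKM. Of 30 ratios of single cone genes between fractions, 5 crossed 1.5-fold under upper-quartile scaling and 6 under quantile normalization, which also turned the sign of 6, and of 50 steps with age, 1 and 2 crossed it. A pseudocount of 0.1 changed 1 call between fractions and 7 of the steps, and one of 0 changed 3 of 29 and 5 of 47, while 8 and 7 steps moved. Of 70 cone to rod ratios within a library, 6 moved with 0.1 and 26 with 1, with 0 and 3 calls changed and the sign of none turned.

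Of all genes, 1868 were higher in Cd73PC at P2, and the number was 2963 with a pseudocount of 0.1, 3106 with 0, 963 at 2-fold, and 3523 by bounds. The genes lower at P2 numbered 3141, and 4772 with a pseudocount of 0, 1560 at 2-fold, and 5567 by bounds. At P5, 1532 were higher, and 2309, 2493, 686, and 2670 under the same 4 settings in the first order, and 3392 were lower, and 5110, 5365, 1764, and 5687. At P8, 1644 were higher, and 2669 under quantile normalization, 887 at 2-fold, and 2815 by bounds, and 4051 were lower, and 6100, 6257, 2363, and 6633 under the 4 settings. Of the cone genes, the 2 higher at P5 became 1 at 2-fold and the 4 higher at P8 became 1. The 1 lower at P5 became 2 with a pseudocount of 0 and by bounds and 0 under upper-quartile scaling, quantile normalization, and at 2-fold. The 1 lower at P8 became 2 with a pseudocount of 0 and by bounds and 0 under upper-quartile scaling and at 2-fold. A higher threshold lowers a count by its construction, and the cause of the other changes was not tested.

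The pseudocount mattered most for weakly expressed genes. The step of Opn1sw from E15 to E18 was 6.06 with 0.1 and 6.32 with 0, and that of Arr3 from P2 to P5 in Cd73NC was 4.03 and 4.46.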

Other observations

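The low value of Pde6h at P5 was seen first and then counted. Of 21808 genes with values in all 8 libraries, 6 (0.0275%) were at least 2-fold lower at P5 than at both P2 and P8 in both fractions on FPKM + 1, namely 2900011O08Rik, Ina, Kcna5, Pcp4l1, Pde6h, and Vstm2b. At 4-fold Pde6h was the only one. Its course over the 8 libraries was also compared with 10820 candidate genes of at least 5 FPKM in at least 1 library. These left out the cone genes, rod counterparts, other pathway genes, and fate regulators. No candidate came close: the 3 most alike were Spp1, Egr1, and Tcp11l2. Their root mean square differences in centred log2(FPKM + 1) were 1.18, 1.21, and 1.31.

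The other cone genes had nearer neighbours by the same measure and among the same candidates. Gnat2 was nearest to Slc27a1, a fatty acid transporter, at 0.155, which was at 5.63 FPKM at E15 and 17.2 at E18, at 17.4, 37.2, and 31.7 in Cd73NC, and at 17.8, 25.0, and 22.0 in Cd73PC. Cngb3 was nearest to Abhd3 at 0.215, Gngt2 to Nrtn (neurturin) at 0.383, Gnb3 to Sez6 at 0.388, and Arr3 to Stom (stomatin) at 0.394. Opn1sw was nearest to Slc1a7, a glutamate transporter, at 0.893. Among the cone genes themselves the closest pair was Gnat2 and Cngb3 at 0.629. Gnat2, Cngb3, Gngt2, Gnb3, Arr3, Opn1sw, and Pde6h each had a gene outside the cascade nearer than any other cone gene, out of far more candidates. For Opn1sw and Pde6h the nearest cone gene was Gnb3, at 0.967 and 1.57. These distances are descriptions over 8 single libraries. Opn1mw, Pde6c, and Cnga3 did not reach 5 FPKM and were left out of this comparison.

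In genomic position on mm9, Opn1sw (chromosome 6, 29326671 to 29330513, minus strand) shares 5 bases with Calu, which had between 46.2 and 83.5 FPKM, and reads of those bases cannot be assigned to either gene.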
